A study of Mus musculus with 91 samples.

Results

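The 7 libraries described here are small RNA libraries of the epiblast (Epi) of E7.5 mouse embryos, 4 from embryos in which Dnmt1 was knocked out (Dnmt1-KO) and 3 from control embryos, out of 91 samples in the series. They were chosen by their labels alone, and the 2 groups were compared across every mature miRNA of the deposited count table, which lists 1504. All embryos came from zygotes of B6D2F1 females (a cross of C57BL/6J and DBA2) and males carrying Oct4-EGFP on a C57BL/6J background, entered in the labels as a C57BL/6 father and an F1 mother. In the knockout group a base editor (hA3A-eBE3-Y130F mRNA with guide RNAs) was injected at the zygote stage to write stop codons into Dnmt1, so that each embryo was a founder edited separately rather than a member of a bred line. What the control embryos received was not stated in the labels. Epi and extraembryonic ectoderm (Exe) were parted by needle at E7.5, and miRNA libraries were built from 100 pg of RNA. Libraries of the same stage and tissue from embryos lacking Dnmt3a and Dnmt3b (Dnmt3a/3b-DKO, 4 libraries) and from embryos lacking all 3 enzymes (Dnmt-null, 3 libraries) entered the same model and are drawn on where they locate a difference. Nothing in the labels says whether libraries of a group came from separate embryos or pools, so that the p-values below measure the spread between these libraries only. The libraries hold miRNAs and give no reading of Dnmt1 itself.

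Dnmt1 is the maintenance DNA methyltransferase, which copies methylation onto the new strand after replication, whereas Dnmt3a and Dnmt3b set methylation de novo when the Epi forms. Methylation marks that pass from the gametes, the imprints, are kept by the maintenance activity, and many germline genes are held silent by promoter methylation that is laid down at implantation. A miRNA is cut from a hairpin as a 5p or a 3p arm, and bases 2 to 8 of the mature strand, the seed, pair with target messages. Several miRNA clusters of the early embryo are imprinted or germline-restricted: the Dlk1-Dio3 cluster on chromosome 12, expressed from the maternal chromosome together with Meg3, Rian and Mirg, and a rapidly evolving cluster on the X chromosome, known from testis.

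In Dnmt1-KO Epi 106 of 652 miRNAs tested (16.3%) passed an adjusted p of 0.05, 54 of them higher (8.28%) and 52 lower (7.98%) than in control. Of the 54 that rose, 44 belonged to the germline X-linked cluster or to the Dlk1-Dio3 cluster. Those that fell were led by both arms of miR-483, which lies in Igf2, and included the most abundant miRNAs of the Epi, miR-302b-3p and miR-92a-3p. Fold changes of the fit had a median of -0.15 on the log2 scale over all miRNAs tested. The direction of the small changes depended on the scaling. When the scaling factors were computed without the Dlk1-Dio3 miRNAs, which took up to 24.1% of a Dnmt1-KO library, the median became 0.18 and the calls split into 85 higher and 13 lower. All 54 miRNAs called higher were still called with each of the other 3 scalings, whereas 13 of the 52 called lower were, counting miR-483-5p, to which DESeq2 gave no adjusted p, and no called miRNA turned its sign. The split was 87 higher and 58 lower with DESeq2, 67 and 27 with rows of identical counts counted once, and 45 and 22 in a fit of these 2 groups alone. The original methods set looser thresholds, a log2 change beyond 0.5 either way with p under 0.05 before adjustment. By these 163 miRNAs passed (25.0%), 88 higher (13.5%) and 75 lower (11.5%). Without the locus in the scaling factors they were 136 higher and 33 lower.

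**Figure D1:**
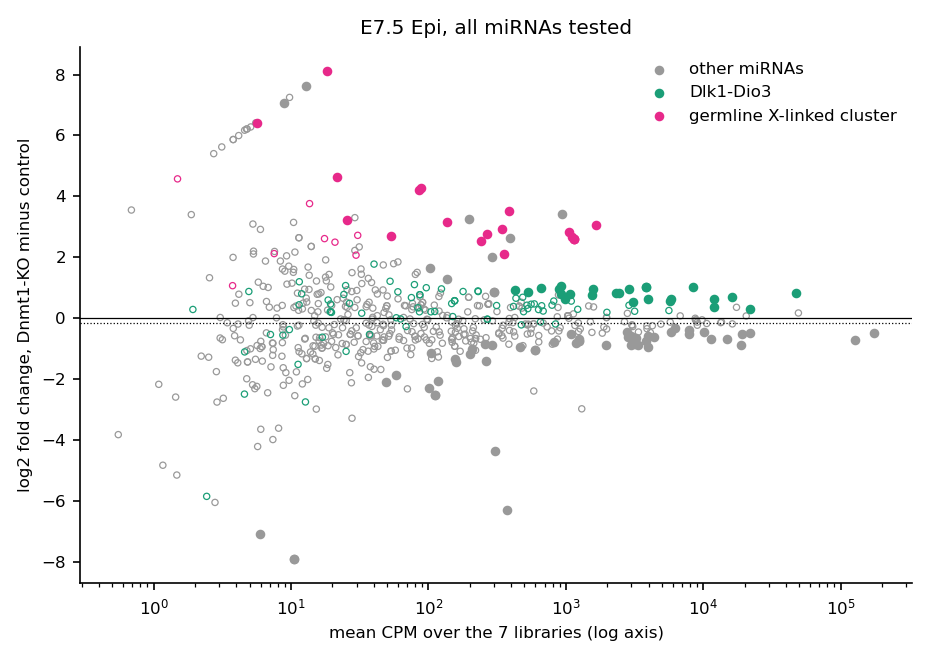
Each point is 1 of the 652 miRNAs tested, placed by its mean CPM over the 7 libraries (log axis) and its fitted log2 fold change, Dnmt1-KO minus control. Filled points passed an adjusted p of 0.05, the dotted line is the median over all (-0.15), and the called points of the germline X-linked cluster (19) and of Dlk1-Dio3 (25) all lie above 0.

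The sequences the comparison turned on are shown with the seed in capitals, written 5′ to 3′ as RefSeq gives them on GRCm38.p6. The first set holds members of the germline X-linked cluster, all from the minus strand between chrX:66776760-66776781 and chrX:66839063-66839084. They have unlike seeds, apart from miR-743a-3p and miR-743b-3p, which share theirs.
miR-743a-3p: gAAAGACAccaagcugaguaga
miR-743b-3p: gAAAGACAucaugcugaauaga
miR-741-3p: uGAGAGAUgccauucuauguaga
miR-880-3p: uACUCCAUccucucugaguaga
miR-878-3p: gCAUGACAccacacuggguaga
miR-881-5p: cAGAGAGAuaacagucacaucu
miR-871-3p: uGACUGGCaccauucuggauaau
miR-470-5p: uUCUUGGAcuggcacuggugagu
miR-465a-3p: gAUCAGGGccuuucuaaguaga
Of the 19 3p arms of this cluster with a RefSeq sequence 7 (36.8%) end in guaga, against 3 of the 550 other 3p arms of the table (0.545%). The 7 count miR-465a-3p, miR-465b-3p and miR-465c-3p, which have the same sequence, as separate arms. The shared ending stands outside the seed. Members of the Dlk1-Dio3 cluster follow, in their order along chromosome 12 from chr12:109592888-109592909 to chr12:109743204-109743225, all on the plus strand.
miR-127-3p: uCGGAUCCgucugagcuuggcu
miR-434-5p: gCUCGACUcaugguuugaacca
miR-136-3p: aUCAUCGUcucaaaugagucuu
miR-370-3p: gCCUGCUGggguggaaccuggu
miR-485-3p: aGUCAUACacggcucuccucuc
miR-409-3p: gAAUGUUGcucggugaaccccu
The miRNAs of the Igf2 and H19 domain, on the minus strand of chromosome 7, are given to set beside the Dlk1-Dio3 members as products of another imprinted domain.
miR-483-5p: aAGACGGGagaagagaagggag
miR-483-3p: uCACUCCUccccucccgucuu
miR-675-3p: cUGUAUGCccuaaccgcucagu
Some of the abundant miRNAs that were lower shared a seed with each other or with a relative that did not pass (miR-363-3p and miR-295-3p), and these are shown to be set side by side.
miR-92a-3p: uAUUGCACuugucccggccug
miR-92b-3p: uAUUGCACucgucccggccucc
miR-25-3p: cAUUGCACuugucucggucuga
miR-363-3p: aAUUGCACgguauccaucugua
miR-302b-3p: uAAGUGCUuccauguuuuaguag
miR-295-3p: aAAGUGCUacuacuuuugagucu
miR-17-5p: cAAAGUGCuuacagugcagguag
miR-93-5p: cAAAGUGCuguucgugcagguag
miR-200c-3p: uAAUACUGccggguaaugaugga
miR-200b-3p: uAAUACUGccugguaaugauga

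The control libraries held between 1623256 and 2325698 miRNA counts and the Dnmt1-KO libraries between 797071 and 1244489, so that the 2 groups did not overlap in depth. A count of 3 then stood for 1.29 to 1.85 CPM (reads of the miRNA scaled to a common library total) in the controls and for 2.41 to 3.76 in Dnmt1-KO. Values below are normalised CPM, that is CPM after scaling by trimmed mean of M-values (TMM), unless a share of the library total is named. Sums of marker lists and mean levels over the libraries, written as CPM, carry no TMM scaling. Of the 1504 miRNAs 852 were too low to test, 535 of them at 0 in all 7 libraries. As a check of the tissue label, the 5 hairpins of the miR-302 cluster, which mark Epi, summed to between 221679 and 232177 CPM in control, 153166 to 221790 in Dnmt1-KO and 36418 to 50511 in control Exe. The miRNAs of the Sfmbt2 intron, which mark Exe and trophoblast, summed to 3790 to 4781 CPM in control Epi, 5766 to 6545 in Dnmt1-KO Epi and 79659 to 98769 in control Exe. Both groups thus carried the Epi pattern, and the sums of the Exe list did not overlap between the groups; the part of such cells in the results was not tested. In bulk RNA, fewer cells of a type and less RNA per cell cannot be told apart.

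The germline X-linked cluster showed the largest upward shift in median of any list. Of its 38 mature miRNAs 27 could be tested, 19 were higher in Dnmt1-KO, 8 did not pass and none was lower, and all 27 fitted values lay above 0 with a median log2 fold change of 2.77 against -0.15 over all miRNAs. With the 2 members at 0 in all controls set at their lower bounds the median was 2.72. These miRNAs together made up 0.108%, 0.236% and 0.0830% of the control libraries and 1.15%, 1.12%, 1.03% and 1.25% of the Dnmt1-KO libraries. Every Dnmt1-KO library lay above every control library, and control replicate 2 was the highest of the controls.

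The most abundant member was miR-470-5p, at 206, 552 and 163 normalised CPM in the 3 control libraries and 2927, 2681, 2363 and 2311 in the 4 Dnmt1-KO libraries, in the order of their replicate numbers (log2 fold change 3.07 ± 0.32, SE here and below, adjusted p = 7.21e-06). For miR-465a-3p the controls read 238, 444 and 185 and the knockouts 1988, 1777, 1585 and 1645 (log2 fold change 2.60 ± 0.25, adjusted p = 3.56e-06). The rows of miR-465b-3p and miR-465c-3p held the same counts in these libraries, since the 3 copies yield 1 mature sequence, and cannot be told apart from it. Reads of miR-741-3p came to 219, 425 and 155 in control and 1411, 1615, 1571 and 2129.6 in Dnmt1-KO (log2 fold change 2.66 ± 0.30, adjusted p = 1.42e-05). The values of miR-871-3p were 209, 383 and 87.9 in control against 1954, 1660.3, 1370.1 and 1509.8 (log2 fold change 2.84 ± 0.35, adjusted p = 2.21e-05). In all 4 of these the groups lay far apart, and control replicate 2 was the highest of the controls each time.

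Control replicate 2 was also the highest for miR-880-3p, which was at 22.6, 99.4 and 38.5 in control and 561, 581, 683 and 606 in Dnmt1-KO (log2 fold change 3.51 ± 0.41, adjusted p = 1.6e-05). Its neighbour miR-743a-3p rose from 2.83, 19.3 and 0 to 114, 146, 119.6 and 175 (log2 fold change 4.20 ± 0.71, adjusted p = 0.000497). The seed relative miR-743b-3p began at a higher control level, 70.7, 159.6 and 128, and reached 263, 467, 464 and 864 (log2 fold change 2.11 ± 0.38, adjusted p = 0.000746). The pair with 1 seed thus differed in control level but both lay higher in every Dnmt1-KO library than in any control. Among those with no count in any control, miR-881-5p had 3.07, 13.4, 58.2 and 45.8 in Dnmt1-KO, at least 17.5-fold higher than 3 counts per control library would give. Also at 0 in the controls, miR-883a-3p had 0, 0, 20.5 and 16.5, at least 5.35-fold higher, with 2 of its knockout libraries at 0. Its call held under 8 of the 15 alternatives that gave it an adjusted p. It was lost without any 1 of the controls and without knockout replicate 3 or 4. Hairpins could move in both arms. In one, miR-878-5p went from 26.4, 36.4 and 8.93 to 229, 274, 168 and 183 (log2 fold change 3.15 ± 0.49, adjusted p = 0.000222). Its 3p arm, miR-878-3p, went from 22.6, 89.2 and 67.3 to 617, 249, 317 and 447 (log2 fold change 2.77 ± 0.44, adjusted p = 0.000296). Likewise, beside miR-871-3p, miR-871-5p went from 0, 22.2 and 0 to 239.7, 109.7, 111 and 122 (log2 fold change 4.28 ± 0.99, adjusted p = 0.0058). Further 5p arms at low levels were called without overlap. These were miR-883a-5p, 0, 3.98 and 0 against 38.9, 49.98, 40.1 and 13.5 (log2 fold change 4.63 ± 1.32, adjusted p = 0.0237), and miR-883b-5p, 11.8, 0 and 0 against 14.3, 24.4, 47.2 and 72.8 (log2 fold change 3.24 ± 0.99, adjusted p = 0.033). Both lost their call in the fit of these 2 groups alone, as did miR-871-5p. Of the 16 alternatives miR-883a-5p kept its call under 13, miR-883b-5p under 11 and miR-871-5p under 15. At a higher level miR-465a-5p went from 51.9, 120.4 and 35.02 to 404, 514, 511 and 684 (log2 fold change 2.93 ± 0.35, adjusted p = 1.6e-05). Called members whose groups overlapped were miR-883a-3p and miR-471-5p (0, 27.8 and 9.61 against 98.3, 105, 18.1 and 105), the latter with knockout replicate 3 within the control range. The members tested and not called had log2 fold changes of 1.07 for miR-470-3p to 4.57 for miR-883b-3p, and 7 of these 8 overlapped between the groups.

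**Figure D2:**
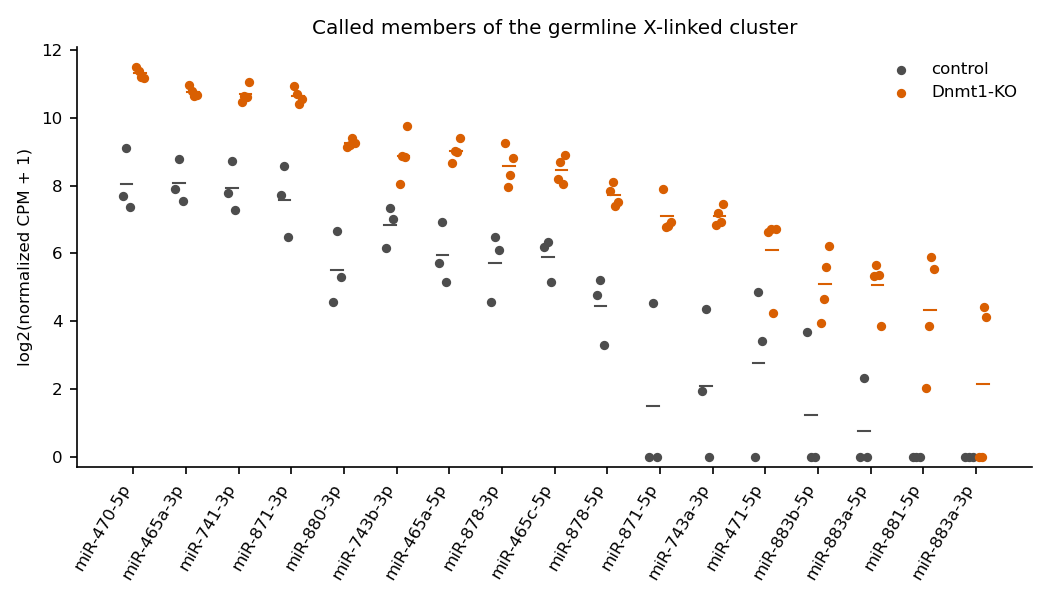
Called members of the germline X-linked cluster, in order of mean level, with log2(normalized CPM + 1) on the vertical axis; each point is a library (3 control, 4 Dnmt1-KO) and each bar a group mean of the logged values. The names miR-465b-3p and miR-465c-3p, identical to miR-465a-3p, are left out, and the groups overlap only for miR-471-5p and miR-883a-3p.

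Over the 16 alternative fits 14 to 22 members were called higher and none lower, with a median between 2.62 and 3.49. Of the 56 other X-linked miRNAs tested none was called higher and 8 were called lower, with a median of -0.52. These included miR-362-5p in a Clcn5 intron, 2904, 2688 and 2669 in control and 1249, 1301, 1702 and 1732 in Dnmt1-KO (log2 fold change -0.88 ± 0.14, adjusted p = 0.000266). Another was miR-351-5p of the miR-322 cluster, 5956, 4008 and 4104 against 3507, 1819, 2913 and 1968 (log2 fold change -0.88 ± 0.27, adjusted p = 0.033). The call of miR-362-5p held under all 16 alternatives. That of miR-351-5p held under 6 of them and was lost without the Dlk1-Dio3 locus in the scaling factors (-0.55). On the shares, Dnmt1-KO Epi (1.03% to 1.25%) stood below Dnmt3a/3b-DKO Epi (1.62% to 2.34%) and Dnmt-null Epi (1.47% to 2.05%) of the same stage without overlap. Tested directly, 6 of the 27 members were lower in Dnmt1-KO than in Dnmt3a/3b-DKO (6.29% of all miRNAs were lower in that comparison) and none higher, with a median of -0.78 against -0.21 over all. There miR-465a-3p had 2458, 2873, 3591 and 2993 normalised CPM in the Dnmt3a/3b-DKO libraries (log2 difference -0.77 ± 0.22, SE, adjusted p = 0.0303). At 4749, 3476, 4889 and 4198, miR-470-5p did not pass (-0.75 ± 0.27, adjusted p = 0.0854). In Exe of the same stage the cluster took 0.561% to 1.36% of control libraries and 2.50% to 2.81% of Dnmt1-KO libraries, and in Epi at E6.5 0.134% to 0.440% and 0.633% to 1.102%.

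In the Dlk1-Dio3 cluster the changes were smaller per miRNA but fell on far more reads. Its miRNAs together took 12.8%, 13.6% and 13.02% of the control libraries and 23.3%, 22.6%, 24.1% and 21.3% of the Dnmt1-KO libraries. Of its 113 mature miRNAs 99 were tested, of which 25 were higher, 74 did not pass and none was lower; the median log2 fold change was 0.48, against -0.26 over the 553 miRNAs outside the locus. This median ran from 0.42 to 0.80 over the 16 alternatives, and 20 to 46 members were called higher. Of the 24 members with a mean of at least 1000 CPM all had a fitted change above 0, and 18 passed the test (median 0.63). Among the 75 below 1000 CPM 7 passed, with a median of 0.43 and a median SE of 0.40 against 0.14 for the abundant members. Both arms could be tested for 44 hairpins, and both lay above 0 in 32, on opposite sides in 10 and below 0 in 2.

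Calls occurred in each of the 4 stretches of the cluster. Next to Meg3, the maternally expressed RNA at which the cluster begins, 3 of 12 miRNAs were higher (median 0.50). In the stretch antisense to Rtl1, a paternally expressed gene that these maternal miRNAs can cut, 5 of 12 were higher (0.77). In the Rian region 2 of 6 were higher (0.25, a median that ran from -0.39 with a replicate block to 0.62 with a filter on the mean count). In the Mirg cluster, the last of the 4 stretches, 15 of 64 were higher (0.46). No member of any stretch was called lower.

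Next to Meg3, miR-673-5p was at 1416, 1730.4 and 1622 in control and 3039, 2723, 2856 and 2791 in Dnmt1-KO (log2 fold change 0.84 ± 0.13, adjusted p = 0.000164). The more distal miR-665-3p read 1807, 1651 and 1523 and 3256, 3822, 1982 and 2858 (log2 fold change 0.84 ± 0.19, adjusted p = 0.00414). The Meg3 exon yields miR-770-5p, with 409.7, 255 and 423 in control and 629, 697, 730.3 and 575 in Dnmt1-KO (log2 fold change 0.86 ± 0.23, adjusted p = 0.0179). In none of these did the groups overlap. By contrast miR-540-3p, at 579, 583 and 838 and 1043, 862, 959 and 722, overlapped and did not pass (log2 fold change 0.43 ± 0.23, adjusted p = 0.25). At a low level, with a mean of 19.7 CPM over the 7 libraries, miR-540-5p did not pass either (log2 fold change 0.19 ± 1.07, adjusted p = 0.93).

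The most abundant miRNA of the locus, miR-127-3p, lies opposite an exon of Rtl1 and had 31492, 33462 and 34267 normalised CPM in control and 70134, 56470.5, 62674 and 44160.3 in Dnmt1-KO (log2 fold change 0.82 ± 0.13, adjusted p = 0.000296). From the same stretch, miR-434-5p went from 5595, 5267 and 5124 to 12386, 11403, 10657 and 8605 (log2 fold change 1.01 ± 0.12, adjusted p = 1.6e-05). Its other arm miR-434-3p went from 8852, 9299 and 9124 to 13295, 15791, 14377 and 12469 (log2 fold change 0.62 ± 0.10, adjusted p = 0.000446). All 4 knockout libraries lay above all controls, and replicate 4 was the lowest of them for each of the 3. For miR-136-3p, at 2315, 2547 and 2179 in control and 2931, 5603, 5322 and 5428 in Dnmt1-KO (log2 fold change 1.04 ± 0.18, adjusted p = 0.000598), replicate 1 was the low one. Its row equals that of miR-3071-5p, which is annotated on the opposite strand at nearly the same bases, so that the call cannot be assigned to 1 strand from these counts. The 5p arm of miR-127 was at 69.8, 34.7 and 78.3 and 109, 108, 132 and 138 and did not pass (adjusted p = 0.110).

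Within a Rian intron, miR-370-3p had 11523, 11932 and 11789 in control and 19271, 18036, 21958 and 17726 in Dnmt1-KO (log2 fold change 0.71 ± 0.10, adjusted p = 9.79e-05). Its 5p arm did not pass (log2 fold change 0.01 ± 0.68, adjusted p = 0.992). Its neighbour miR-341-3p read 684, 754 and 830.1 and 1248, 1229, 1185 and 1028 (log2 fold change 0.63 ± 0.19, adjusted p = 0.0279).

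In the Mirg cluster miR-485-3p stood at 1742, 1934 and 1960.3 against 3814, 3366, 3504 and 3861 (log2 fold change 0.95 ± 0.14, adjusted p = 0.000137). Further on, miR-381-3p stood at 875, 1079 and 1059 against 2127, 2100.4, 1973 and 1697 (log2 fold change 0.97 ± 0.15, adjusted p = 0.000254). The largest called change of the locus was that of miR-134-5p, from 631, 628 and 419.5 to 1054, 859, 1412 and 1350.0 (log2 fold change 1.06 ± 0.22, adjusted p = 0.00309). The smallest were in the 2 most abundant miRNAs of Mirg introns. In control and Dnmt1-KO miR-409-3p was at 19075, 19999 and 19129 and 24284, 24611, 24468 and 21784 (log2 fold change 0.29 ± 0.09, adjusted p = 0.0278). For miR-541-5p the values were 9636, 10092 and 11463 and 13222, 12842, 14451 and 12669 (log2 fold change 0.35 ± 0.11, adjusted p = 0.0342). Neither overlapped between the groups, yet both lost their call in some of the fits without 1 library. Called values along the locus therefore ran from 0.29 to 1.06 on the log2 scale. The 5p arm of miR-409 rose more, from 4441, 4669 and 4341 to 7264, 7170.4, 6529.6 and 5792 (log2 fold change 0.58 ± 0.11, adjusted p = 0.00146). At low levels miR-369-3p, 76.4, 81.2 and 82.4 in control and 131, 181.6, 89.7 and 221 in Dnmt1-KO, did not overlap and missed the threshold (log2 fold change 0.96 ± 0.33, adjusted p = 0.0558), as did miR-541-3p (log2 fold change 0.88 ± 0.32, adjusted p = 0.0729). The 5p arm of miR-369 did not pass either (log2 fold change 0.23 ± 0.17, adjusted p = 0.41).

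**Figure D3:**
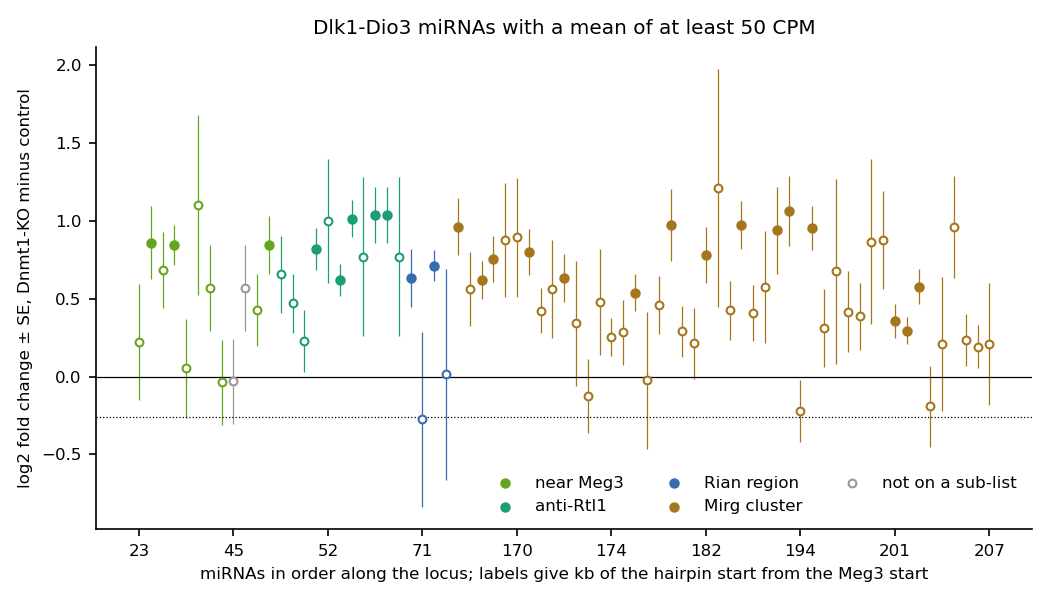
Log2 fold change (Dnmt1-KO minus control) with its SE for the 73 Dlk1-Dio3 miRNAs with a mean of at least 50 CPM, in their order along the locus; the numbers under the axis give the distance of the hairpin from the start of Meg3 in kb, colours give the stretch, and filled points passed the test. The dotted line is the median of all miRNAs outside the locus (-0.26), and called points occur in all 4 stretches.

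The cluster's share in Dnmt1-KO Epi (21.3% to 24.1%) overlapped that in Dnmt-null Epi (20.4% to 24.3%) and lay above that in Dnmt3a/3b-DKO Epi (14.4% to 15.8%). In the direct comparison of Dnmt1-KO with Dnmt3a/3b-DKO 18 of the 99 members were higher (3.53% of all miRNAs were) and none lower, with a median of 0.43 against -0.31 outside the locus. There miR-127-3p had 36132, 33009, 32565 and 34309 normalised CPM in the Dnmt3a/3b-DKO libraries, below every Dnmt1-KO library (log2 difference 0.78 ± 0.12, SE, adjusted p = 0.000874). The miRNA with the smallest p-value was miR-540-3p, at 226, 138, 155 and 169.6 in Dnmt3a/3b-DKO (2.38 ± 0.22, adjusted p = 3.32e-06), followed by miR-541-5p at 7015, 6095, 5953 and 6294 (1.07 ± 0.10, adjusted p = 3.32e-06). For these 2 the Dnmt3a/3b-DKO libraries lay below the controls as well. Outside the locus miR-99b-5p was lower in Dnmt1-KO, at 9201, 9841, 7852 and 7488 against 18251, 20055, 15348 and 13038 (-0.96 ± 0.13, adjusted p = 0.000247). In all, 64 miRNAs differed between the 2 mutants (9.82%), 23 higher and 41 lower in Dnmt1-KO. The split was 47 and 13 with scaling factors computed without the locus, 51 and 34 with DESeq2, 36 and 24 with RLE size factors and 34 and 19 with identical rows counted once. The count was 37 without Dnmt3a/3b-DKO replicate 2 and 39 without replicate 3. The comparisons of the 2 mutants with control share the control libraries, and none of their likeness was tested.

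**Figure D4:**
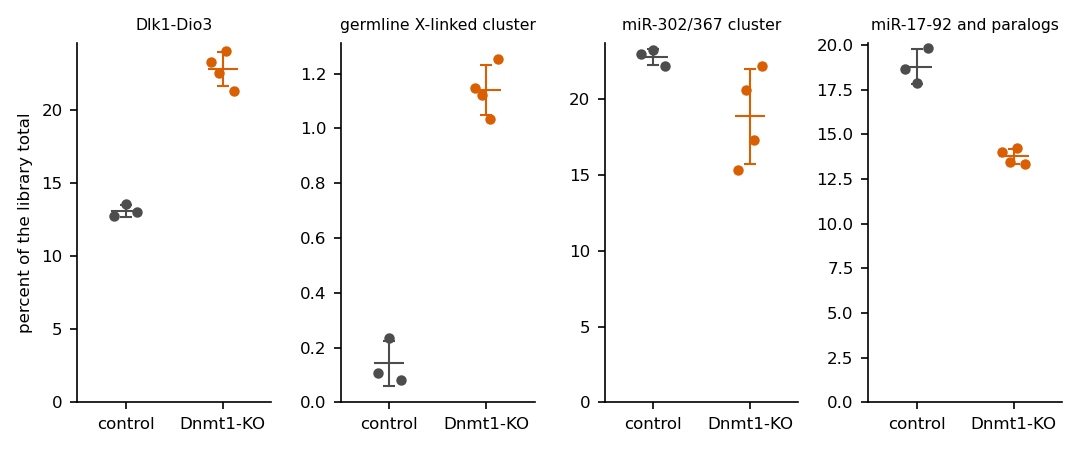
Percent of the library total taken by 4 sets of miRNAs in the 3 control and 4 Dnmt1-KO libraries (points), with the group mean and SD (bars); rows of identical counts are counted once. The Dlk1-Dio3 and germline X-linked panels show the Dnmt1-KO libraries above the controls, the miR-17-92 panel shows them below, and the miR-302 panel touches at 22.2%.

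The strongest fall was at Igf2, the paternally expressed growth factor gene, whose intron holds miR-483. In control Epi miR-483-3p was at 944, 939 and 900.2 normalised CPM, and in Dnmt1-KO it was at 0, 4.88, 23.6 and 16.5 (log2 fold change -6.29 ± 0.68, adjusted p = 1.6e-05). The other arm, miR-483-5p, fell from 608, 761 and 801 to 109, 0, 19.7 and 13.5 (log2 fold change -4.35 ± 0.81, adjusted p = 0.00144). In each arm 1 knockout library had no count, and it was a different library for each. In counts, miR-483-3p had 2003, 1653 and 1311 in control and 0, 4, 30 and 22 in Dnmt1-KO. In the Dnmt3a/3b-DKO libraries miR-483-3p was at 187, 407, 439.5 and 457 and miR-483-5p at 551, 442, 629 and 600.2, and both were lower in Dnmt1-KO than there (log2 difference -4.97 ± 0.64, SE, adjusted p = 0.000247, and -3.97 ± 0.77, adjusted p = 0.00412). In the 3 Dnmt-null libraries both arms were at 0. The H19 exon product miR-675-3p, from the maternally expressed neighbour of Igf2, was barely detected. It had 0, 0 and 4 counts in control and 9, 9, 8 and 9 in Dnmt1-KO, and did not pass (log2 fold change 3.09 ± 1.75, adjusted p = 0.27). Its groups did not overlap, but the levels were close to the floor of 3 counts.

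The other miRNAs on the list of imprinted domains outside Dlk1-Dio3 gave no call in this fit. That list leaves out the Sfmbt2 intron, whose miRNAs are given further below. Without the locus in the scaling factors 2 of the list passed, miR-298-5p (log2 fold change 0.40, adjusted p = 0.00366) and miR-296-3p (0.69, adjusted p = 0.0249). On chromosome 2 the Gnas-domain miRNA miR-298-5p was at 20730.5, 19294 and 20620.0 in control and 23434, 21626, 21561 and 18429 in Dnmt1-KO (log2 fold change 0.07 ± 0.09, adjusted p = 0.664). Its neighbour miR-296-5p was at 184, 194 and 295 and 260.2, 268, 157 and 202 (log2 fold change -0.02 ± 0.43, adjusted p = 0.984). The other arm, miR-296-3p, was at 1233, 1203 and 1686 and 2247, 1708, 1558 and 1590.1 (log2 fold change 0.37 ± 0.21, adjusted p = 0.265). The arms of miR-335, in an intron of the paternally expressed Mest, had log2 fold changes of 0.08 ± 0.18 (3p) and -0.13 ± 0.19 (5p) and overlapped. Of the 9 miRNAs tested on this list only the arms of miR-483 were thus called in the fit reported. The 3p arm was called under all 16 alternatives and the 5p arm under the 15 that gave it an adjusted p (DESeq2 gave none).

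**Figure D5:**
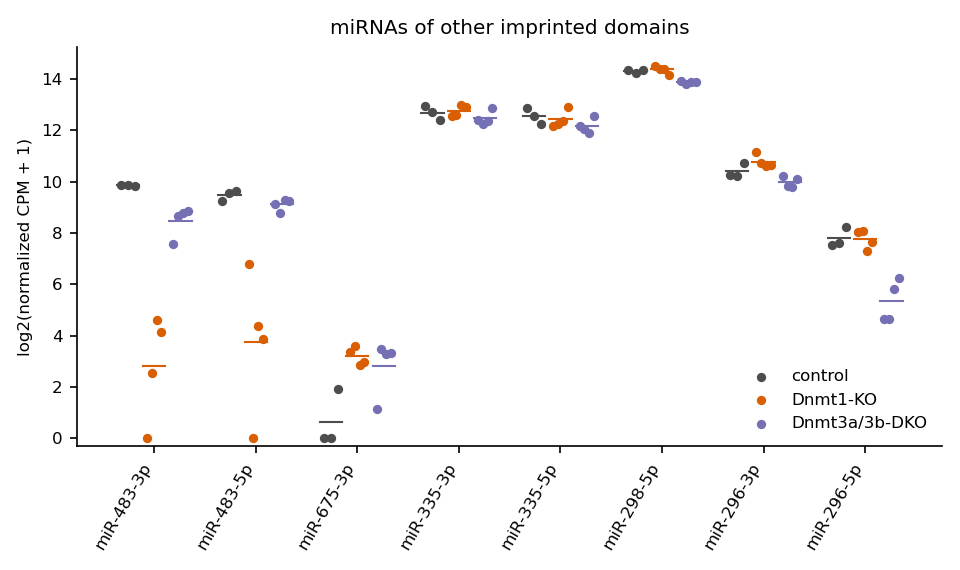
log2(normalized CPM + 1) of miRNAs from the Igf2/H19, Mest and Gnas domains in control (3), Dnmt1-KO (4) and Dnmt3a/3b-DKO (4) Epi libraries of E7.5; each point is a library and each bar the group mean of the logged values. Both arms of miR-483 are lowest in Dnmt1-KO, and miR-335 and miR-298-5p stay within a narrow range.

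The most abundant miRNA of the Epi, miR-302b-3p, is a product of the cluster that marks primed pluripotent cells. It read 217344, 215461 and 212743 in control and 128139, 166409, 140349 and 176591 in Dnmt1-KO (log2 fold change -0.49 ± 0.14, adjusted p = 0.0195). Of the 10 arms of the cluster miR-302a-3p was also lower (log2 fold change -0.59 ± 0.17, adjusted p = 0.0287) and 8 did not pass. The call of miR-302a-3p held under 5 of the 16 alternatives and was lost without the locus in the scaling factors (-0.26). The share of the cluster was 23.0%, 23.2% and 22.2% in control and 15.3%, 20.6%, 17.3% and 22.2% in Dnmt1-KO, the last within the control range. Without the locus in the scaling factors miR-302b-3p changed by -0.17 and was no longer called. The miR-290-295 cluster, the pluripotency cluster that precedes it in development and shares its seed, had no member lower. There miR-295-3p was at 15299, 14899.7 and 15273 and 19946, 25077, 15672 and 16958 (log2 fold change 0.36 ± 0.14, adjusted p = 0.114). The median over its 18 miRNAs was -0.12. Its only call in this fit was miR-291b-5p, 144, 181 and 97.5 in control and 3675, 146, 53.5 and 2133 in Dnmt1-KO (log2 fold change 3.41 ± 1.104, adjusted p = 0.0449). Replicates 1 and 4 were high, and replicates 2 and 3 lay within or below the control range. The call held under 9 of the 16 alternatives and was lost without any 1 of the controls and without knockout replicate 1 or 4. Over the alternatives 0 to 2 members of the cluster were called higher.

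Lower with less dependence on the scaling was miR-92a-3p, of the miR-17-92 and miR-106a-363 clusters that promote proliferation, at 164153, 154915 and 184998 in control and 112109, 99595, 107396 and 93699 in Dnmt1-KO (log2 fold change -0.70 ± 0.09, adjusted p = 3.06e-05). Its relative miR-92b-3p, from a separate gene on chromosome 3, had 23075, 26468 and 29438 and 16022, 11953, 17721 and 10936 (log2 fold change -0.89 ± 0.17, adjusted p = 0.00115). In both the groups stood apart, and both were called under all 16 alternatives, with miR-92a-3p at -0.38 without the locus in the scaling factors. With the same seed, miR-25-3p was at 9178, 9452 and 9144 and 7205, 6903, 6668 and 7449 (log2 fold change -0.39 ± 0.10, adjusted p = 0.0103), but came to -0.07 and was not called without the locus in the scaling factors. The 3 others with the seed AUUGCAC that were tested did not pass, among them miR-363-3p (log2 fold change -0.15 ± 0.13, adjusted p = 0.53). For the seed AAAGUGC 2 of 6 were lower, miR-17-5p (log2 fold change -0.75 ± 0.23, adjusted p = 0.0361) and miR-93-5p (log2 fold change -1.04 ± 0.25, adjusted p = 0.00861). Both lost their call without the locus in the scaling factors, at -0.42 and -0.71. Of the 16 alternatives miR-17-5p kept its call under 5 and miR-93-5p under 14. Over miR-17-92 and its paralogs 6 of 25 were lower and none higher, with a median of -0.65, and their share went from 18.6%, 17.9% and 19.8% to 14.03%, 13.4%, 14.2% and 13.4%. Over the alternatives 1 to 7 of them were called lower.

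Of the miR-200 family, which holds epithelial identity by targeting Zeb1 and Zeb2, miR-200c-3p was lower, at 5626, 5604 and 5779 in control and 3083, 2588, 2654 and 3387 in Dnmt1-KO (log2 fold change -0.95 ± 0.13, adjusted p = 4.05e-05), and kept its call under all 16 alternatives. With the same seed, miR-200b-3p went from 3251, 3387 and 3499 to 2153, 2169.9, 2605 and 2843 (log2 fold change -0.47 ± 0.13, adjusted p = 0.0195), a call that was lost without the locus in the scaling factors. Transcribed with miR-200b but with another seed, miR-200a-3p was at 387, 386.3 and 364 and 609, 553, 469.8 and 550.0 and did not pass (log2 fold change 0.52 ± 0.19, adjusted p = 0.0761). The 9 tested members of the family had 2 lower, none higher and a median of -0.40. Over the alternatives 1 to 3 were called lower and 0 to 1 higher. Without the locus in the scaling factors 1 was called each way.

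Further miRNAs called lower under every alternative were miR-342-3p in an Evl intron, miR-6944-3p in a Dbn1 intron, and miR-1983. The first was at 4247, 3810.1 and 4523 against 2147, 2226, 2474 and 2270.0 (log2 fold change -0.88 ± 0.13, adjusted p = 0.000104). For miR-6944-3p the values were 164, 135 and 297 against 48.1, 20.7, 58.2 and 33.8 (log2 fold change -2.30 ± 0.49, adjusted p = 0.00308). For miR-1983 they were 4478, 3986 and 4639 against 2585, 2364, 2477 and 2389 (log2 fold change -0.83 ± 0.11, adjusted p = 7e-05). With miR-483-3p, miR-92a-3p, miR-92b-3p, miR-200c-3p and miR-362-5p these make 8 of the 52, or 9 with miR-483-5p, which had no adjusted p from DESeq2. Broadly expressed miRNAs were lower too, such as miR-30c-5p (log2 fold change -0.69 ± 0.12, adjusted p = 0.000573), miR-191-5p (log2 fold change -0.52 ± 0.09, adjusted p = 0.000816), miR-26a-5p (log2 fold change -0.49 ± 0.11, adjusted p = 0.0047) and miR-16-5p (log2 fold change -0.66 ± 0.15, adjusted p = 0.00424). All 4 lost their call without the locus in the scaling factors, where they came to -0.36, -0.19, -0.16 and -0.33 in the same order. At a low level, the liver and endoderm miRNA miR-122-5p had 19.3, 48.3 and 11.7 in control and no count in any Dnmt1-KO library. It was at least 9.32-fold lower than control when 3 counts per library are taken as the floor, and the row of miR-122b-3p is identical. The call of miR-122-5p held under 10 of the 16 alternatives. It was lost with the replicate block, without control replicate 1 or 2 and without knockout replicate 2, 3 or 4. By the same floor miR-1191a was at least 5.32-fold lower, at 5.19, 18.7 and 21.3 in control and 0 in every Dnmt1-KO library, a call lost without control replicate 2 or 3 and with the replicate block. For miR-8114 the values were 165, 189 and 310.4 against 79.9, 15.8, 80.3 and 35.3 (log2 fold change -2.06 ± 0.57, adjusted p = 0.0196), and the call was lost without the locus in the scaling factors. Among the 10 most abundant miRNAs miR-5099, at 44378, 41982 and 53498 and 79620.0, 47774, 47341 and 35211, overlapped and did not pass (log2 fold change 0.17 ± 0.24, adjusted p = 0.705).

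Outside the 2 clusters 10 miRNAs rose. One was miR-291b-5p, above. A miRNA of blood cells, miR-142a-5p, went from 63.6, 25.6 and 4.81 to 308, 307, 172 and 445 (log2 fold change 3.27 ± 0.57, adjusted p = 0.000598). Levels of miR-99a-5p went from 42.0, 49.99 and 44.6 to 173, 92.6, 172 and 131 (log2 fold change 1.64 ± 0.51, adjusted p = 0.0373). Of the Sfmbt2 intron, miR-669a-5p rose with its identical row miR-669p-5p (log2 fold change 0.86 ± 0.28, adjusted p = 0.0485). Its neighbour miR-466n-3p rose as well (log2 fold change 1.29 ± 0.40, adjusted p = 0.0376). These calls were less stable: miR-669a-5p kept its call under 9 of the 16 alternatives, miR-466n-3p under 10 and miR-99a-5p under 9, and all 3 lost it without any 1 of the controls. With no count in control, miR-215-5p had 0, 12.2, 30.7 and 15.8 in Dnmt1-KO, at least 8.49-fold higher, and miR-378c 21.5, 0, 51.2 and 13.5, at least 12.5-fold higher. In both a knockout library was at 0 too. The call of miR-378c was lost in the fit of these 2 groups alone, with the replicate block and without any 1 of the controls. The blood list summed to 123 to 195 CPM in control and 371 to 654 in Dnmt1-KO, with miR-142a-5p its only called member, 1 of 7 tested, and miR-223 at 0 in all 7 libraries; its part in the other results was not tested. Of 42 Sfmbt2 miRNAs tested 3 were higher (8.28% of all miRNAs were) and 39 did not pass, and 0 to 5 were higher over the alternatives. The levels of miR-5126 were 72.6, 73.9 and 169 in control and 585, 408, 246 and 433 in Dnmt1-KO (log2 fold change 1.99 ± 0.47, adjusted p = 0.00644). Those of miR-1195 were 57.0, 80.1 and 150.4 and 697, 653, 582 and 467 (log2 fold change 2.65 ± 0.32, adjusted p = 1.6e-05). In neither did the groups overlap, and both kept their call under all 16 alternatives. For miR-1195 the annotated sequence is a widely repeated one:
miR-1195: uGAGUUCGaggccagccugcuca
Its first 18 bases occur in transcripts of 627 GENCODE genes in sense and of 654 in antisense. For any other of the 96 called miRNAs with a RefSeq sequence the number was at most 5 genes. The counts of miR-1195 thus cannot be assigned to its hairpin from this table.

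Whether the effect of Dnmt1-KO differed between Epi and Exe of E7.5 was tested as an interaction. The test called 38 of 728 miRNAs (5.22%), 37 with a larger value in Epi (5.08%) and 1 with a smaller one (0.137%), but the difference had a median of 0.59 over all miRNAs. With size factors of another kind (RLE) or TMM within each tissue no miRNA passed in edgeR (106 and 105 at an unadjusted p under 0.05). None passed in a fit of the 4 groups compared or without control Epi replicate 3 either (105 and 88 at an unadjusted p), and 1 passed without Epi Dnmt1-KO replicate 2. Relative to that median, miR-880-3p differed by 1.996 and miR-741-3p by 1.38, and miR-483-3p, the 1 with the smaller value, by -4.13. None of the 38 was thus called under every scaling. Against the effect at E6.5, 1 of 572 miRNAs differed (0.175%), miR-291b-5p (5.72 ± 1.24, SE, adjusted p = 0.0344), whose level was high in 2 of the 4 Dnmt1-KO libraries of E7.5, and which no longer passed without knockout replicate 1 or 4.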

How the data were processed

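Mature miRNA counts of the 7 E7.5 Epi libraries were read from the deposited table of raw counts of the whole series. Per the labels and the methods, the authors used fastp 0.20.1 for trimming and Bowtie 1.2.1.1 for alignment (GRCm38), and counted reads at miRBase 21 mature positions, allowing a shift at the 3′ end, and tested with DESeq2 1.30.1. No normalization had been applied, and every column of the table was assigned to a sample by its name.

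Counts were fitted here with edgeR 4.0.16 in R 4.3.3 (quasi-likelihood test, TMM scaling, a minimum count of 10) over all 14 E7.5 Epi libraries with genotype as the only term, and p-values were adjusted by Benjamini-Hochberg over all miRNAs tested, a call being an adjusted p under 0.05. The script was tested on simulated data. CPM values, percent of counts, log2 fold changes, SE (from the quasi-likelihood statistic) and lower bounds of folds (against 3 counts per library) were computed here from the deposited counts; bounds cover counting error only. Total counts per library limited the precision of low miRNAs. In all, 203 names in 76 sets had the same counts in the 7 libraries; list shares count each set once, calls count names (50 distinct rows higher and 50 lower). No 2 replicates were alike within sampling noise (chi-square per degree of freedom 31.3 to 130.0). Alternatives were DESeq2 1.42.0, RLE factors, TMM without Dlk1-Dio3, other count filters, a fit of the compared groups alone, a replicate block, thinning to the smallest total, leaving out each library and, chosen after seeing the data, identical rows counted once and TMM within each tissue.

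The comparison, the lists and the members named were chosen with earlier results of these data known. By rule, named were the 10 largest called changes each way without overlap, the 10 most abundant miRNAs, the arms tested of miRNAs the study names, up to 4 abundant members per list and the 5 smallest p-values per further test, of which list members that did not pass, and some that did, are given only within the counts of their list; others named (miR-1195, miR-5126, miR-3071-5p, miR-200a-3p, low members and further called miRNAs of a list) were added after their values were seen. Dlk1-Dio3 members were taken by position between Dlk1 and Dio3 in the annotation (1490 of 1504 names matched a gene), and RefSeq sequences matched 543 of the 652 tested and 96 of the 106 called. Transcripts (141767) were searched from GENCODE vM21.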

Additional observations from a re-analysis of the deposited data

Results flagged for a closer look

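Among 120 miRNAs and lists examined in the 4 Dnmt1-KO libraries 9 had a library far from the others, by Dixon's ratio at the 95% level, where chance gives about 1 in 20. Replicate 3 was apart for miR-471-5p (18.1 normalised CPM, low), let-7b-5p (283, high), miR-10b-5p (701, high) and the share of the let-7 and miR-98 list (0.142% of counts, high). Replicate 1 was apart for miR-871-5p (239.7, high), miR-136-3p (2931, low) and miR-540-5p (0, low). Replicate 4 was apart for miR-409-3p (21784, low) and miR-877-3p (30.8, high).

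The effect of Dnmt1-KO differed between Epi and Exe of E7.5 by an interaction test at an adjusted p of 0.05 (edgeR) for the following miRNAs of the report, as differences of log2 fold changes, Epi minus Exe, to be read against a median of 0.59 over all miRNAs and with no call left under RLE or within-tissue scaling. In the germline X-linked cluster the difference was 1.66 for miR-465a-3p, 2.28 for miR-465a-5p, 1.80 for miR-465c-5p, 1.76 for miR-470-5p, 1.97 for miR-741-3p, 3.44 for miR-743a-3p, 2.63 for miR-878-5p, 2.59 for miR-880-3p and 7.89 for miR-881-5p, the last from libraries at 0 and no measure of size. In Dlk1-Dio3 it was 0.63 for miR-434-3p, 0.77 for miR-434-5p, 1.12 for miR-379-3p and 0.93 for miR-541-5p. For miR-483-3p it was -3.53. The remaining values were 0.68 for miR-30c-5p, 4.17 for miR-142a-5p, 1.46 for miR-669a-5p, 2.28 for miR-466n-3p and 1.02 for miR-295-3p. Between E7.5 and E6.5 Epi the interaction was 5.72 for miR-291b-5p.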

How the results depend on the processing

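Over 135 named miRNAs no call turned its direction, while values near 0 of miRNAs not called could change sign (miR-296-5p from -0.14 to 0.30, let-7a-5p from -0.23 to 0.24); of 2151 values 1941 kept their side of the threshold, 154 lost and 56 gained it. Depth, lower in Dnmt1-KO, limited the precision of low miRNAs. The 106 calls became 67 in a fit of the compared groups alone, and 74 to 108 without 1 library (163 calls by the other thresholds, 148 to 164). Higher and lower calls split as 59 and 43 with RLE, 66 and 39 with no count filter, 69 and 37 with a filter on the mean and 65 and 35 thinned to the smallest total. The Dlk1-Dio3 median moved from 0.48 to 0.80 with TMM without the locus, 0.60 with no filter, 0.68 with the filter on the mean, 0.59 with the compared groups alone, 0.58 thinned and 0.66 with identical rows counted once (0.45 to 0.52 without 1 library). Dnmt1-KO against Dnmt3a/3b-DKO gave 37 to 61 calls without 1 library. The tissue difference, 38 calls, gave 0 with RLE, 0 with the compared groups alone, 0 with TMM within each tissue, 25 with the replicate block and 0 to 40 without 1 library. The stage difference, 1 call, gave 13 with DESeq2, 0 with RLE, 21 with no filter, 0 with the filter on the mean, 4 with the compared groups alone, 0 with the replicate block and 0 to 10 without 1 library. The cause of these moves was not tested. Replicate numbers did not pair the samples (correlations of deviations -0.03, -0.02 and 0.04); with them as a block 94 miRNAs were called, 47 higher and 47 lower, against 57 for the comparison with Dnmt3a/3b-DKO.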

Other observations

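The miRNAs of the Hox clusters had the lowest median of any list, -2.68 over 4 tested, but none passed the test. In control Epi miR-10a-5p was at 3580.2, 2856 and 1903 normalised CPM and in Dnmt1-KO at 3.07, 10.97, 977 and 416 (log2 fold change -2.98 ± 1.15, adjusted p = 0.0945), with all knockout libraries below all controls. For miR-10b-5p, in the Hoxd cluster, the values were 1803, 986 and 669 and 79.9, 6.10, 701 and 87.0 (log2 fold change -2.39 ± 0.94, adjusted p = 0.101), with knockout replicate 3 within the control range. Knockout replicate 3 was the highest of its group for both, and 0 to 3 of the 4 were called lower over the alternatives. Of 13 neural miRNAs 2 names of 1 row, miR-219a-2-3p and miR-219b-5p, were lower, at 249, 231 and 200.5 against 0, 45.1, 66.1 and 44.3 (log2 fold change -2.54 ± 0.83, adjusted p = 0.0498). This call held under 5 of the 16 alternatives for miR-219a-2-3p and was lost with RLE factors, without the locus in the scaling factors and without any 1 of the controls. The shorter list of neural markers (7 tested, 1 called) summed to 399 to 458 CPM in control and 175 to 361 in Dnmt1-KO. The share of the wider neural list overlapped, at 0.0598% to 0.0664% and 0.0271% to 0.0656%. The part of such cells was not tested.

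Mesenchymal and mesodermal miRNAs (14 tested, median -0.66), let-7 and miR-98 (9, -0.08), the p53-linked miR-34 (3, -0.15), the miR-29 and miR-148 families, which can target Dnmt messages (9, -0.24), and the miR-183 cluster (6, -0.18) had no call. The same held for miR-181 (7, -0.23) and miR-23/27/24 (9, -0.05). The miR-30 family had 2 of 11 lower (-0.23), miR-15/16 1 of 8 (-0.03), the miR-130 family 1 of 8 (-0.25) and the X-linked miR-322 cluster 2 of 11 (-0.59). Among endoderm miRNAs 1 of 5 was higher and 1 lower (0.23), and among miR-99/100 with miR-125 1 of 7 was higher (-0.06). Over all miRNAs tested 8.28% were higher and 7.98% lower, to be read beside these small counts.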
